A study of Rattus norvegicus with 13 samples.

Results

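The genes described here are 10 genes of major histocompatibility complex (MHC) class II antigen presentation and of the interferon response, followed in the liver of pregnant rats. They are the class II chains RT1-Ba, RT1-Bb and RT1-Da, the invariant chain Cd74, the interferon regulatory factors Irf1 and Irf7, the immunoproteasome subunits Psmb8 and Psmb9, the antiviral GTPase Mx2 and the oxidase subunit Cyba. Every probe set whose annotation names exactly 1 of these genes was taken, which gave 23 of the 8740 probe sets other than controls on the array. Of these, 21 were bright enough to enter the 5244 probe sets that were fitted, with at least 1 for each of the 10 genes. The genes were selected on their signals in the comparisons described below. Their levels and changes are therefore given as a description, with no test.

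Total RNA of 13 hepatic samples from time-mated female Sprague Dawley rats was hybridised to 1 Affymetrix rat array each. The groups are EtOH-160 (4 arrays), fed diets with ethanol at 12 g per kg per day and undernourished at 160 kcal per kg of body mass to the power 0.75 per day, EtOH-220 (3 arrays), with the same ethanol dose at 220 kcal, TEN-160 (3 arrays), undernourished at 160 kcal without ethanol, and TEN-220 (3 arrays), the control at 220 kcal without ethanol. All groups were pregnant. The age of the rats, the day of gestation and whether an array held RNA of 1 animal or of a pool are not given in the sources used here, so p-values measure only the spread between these samples, which may be technical.

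MHC class II molecules are pairs of an alpha and a beta chain that show peptides from engulfed proteins to helper T cells. In the rat they are encoded in the RT1 complex, and in liver they are carried mainly by Kupffer cells, dendritic cells and B cells rather than by hepatocytes. Cd74 holds newly made class II pairs until they reach the compartment where peptides are loaded. Interferon gamma raises class II genes through the transactivator Ciita and raises class I presentation through Irf1, which also drives the immunoproteasome. Type I interferons act through Irf9 and Irf7, among other factors, on antiviral genes such as Mx2.

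The RT1 genes of the set lie close together on rat chromosome 20 in the GRCr8 assembly: RT1-Da at chr20:4515393-4520387, RT1-Ba at chr20:4577057-4581650, RT1-Bb at chr20:4598475-4604118, Psmb8 at chr20:4654068-4657049 and Psmb9 at chr20:4668952-4674421. Cd74 is at chr18:56527071-56536406, Irf1 at chr10:38417935-38424946, Irf7 at chr1:205796956-205800543, Mx2 at chr11:50375101-50399373 and Cyba at chr19:67396143-67404214. RefSeq's GRCr8 promoter table held a window for 9 of the 10 genes, from 250 bases before to 50 bases after a gene's start, and none for Mx2. Positions below are counted from the start that this table uses, with -1 the base before it. That start is the outer end of the gene coordinates above for RT1-Ba, RT1-Bb, Irf1 and Cyba, but lies inside them by 22 bases in RT1-Da, 18 in Psmb8, 48 in Psmb9, 135 in Cd74 and 520 in Irf7. The stretch of Irf7 shown is therefore wholly inside the gene as listed, and those of RT1-Da and Psmb8 are partly inside it. The promoters of the 3 class II chains are shown first, for the last 120 bases before the start, because the class II enhanceosome binds the X and Y boxes there. Capitals mark every match to GATTGG (the core of the Y box), AGCAACNGA (the core of the X box) and TGACG (the core of the cAMP element to which the X2 box is related), on either strand.

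RT1-Ba, chr20:4576937-4577056, plus strand: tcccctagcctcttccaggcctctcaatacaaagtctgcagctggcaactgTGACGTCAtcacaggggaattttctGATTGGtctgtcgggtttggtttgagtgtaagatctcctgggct
RT1-Bb, chr20:4604119-4604238, minus strand: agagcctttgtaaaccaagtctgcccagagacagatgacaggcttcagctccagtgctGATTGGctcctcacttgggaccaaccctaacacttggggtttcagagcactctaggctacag
RT1-Da, chr20:4515295-4515414, plus strand: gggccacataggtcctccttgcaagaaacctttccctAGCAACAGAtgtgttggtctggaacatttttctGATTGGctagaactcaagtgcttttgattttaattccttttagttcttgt

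GATTGG was found on the gene's own strand in all 3 class II promoters, beginning at -44 in RT1-Ba, -62 in RT1-Bb and -50 in RT1-Da. It is also in 14.8% of the 33469 windows of this length in the table, and in the window of Psmb9 at 22 bases after the start. The X box core was found in RT1-Da at -83, and in 1.33% of all windows. In RT1-Ba, TGACG was found on both strands, beginning at -69 and -66 in an overlapping palindrome. TGACG was also in the Psmb9 window, at -115, and in 21.2% of all windows. For the interferon genes the searched motifs were GAAANNGAA (an interferon response element core) and TTCNNNGAA (a palindrome of the kind bound by activated STAT dimers), marked by capitals in the same way.

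Irf1, chr10:38417743-38417852, plus strand: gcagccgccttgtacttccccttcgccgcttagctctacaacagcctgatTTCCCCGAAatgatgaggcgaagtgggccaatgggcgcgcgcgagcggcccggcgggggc
Irf7, chr1:205800032-205800141, minus strand: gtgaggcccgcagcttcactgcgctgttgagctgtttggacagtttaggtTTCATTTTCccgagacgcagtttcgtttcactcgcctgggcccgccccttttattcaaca
Psmb8, chr20:4656982-4657091, minus strand: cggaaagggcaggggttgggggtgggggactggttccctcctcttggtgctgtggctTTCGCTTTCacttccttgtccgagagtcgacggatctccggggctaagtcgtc

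The STAT palindrome was found in Irf1 at -142 and in Psmb8 at -245, outside the stretch printed, and in 8.87% of all windows. GAAANNGAA was found on the opposite strand in Irf7 at -68 and in Psmb8 at -3, and in 9.71% of all windows. Cd74 and Cyba held none of the 5 motifs in these windows. A match says only that these letters are present.

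Signals below are quantile-normalized MAS5 signals, and a change is the first-named group's mean log2 signal minus that of the other, given ± its standard error (SE) in the fit. A probe set was called where its adjusted p (limma, Benjamini-Hochberg over all 5244) was under 0.05. A signal of 44 marks the background. Array TEN-220 replicate 1 was deposited at a trimmed mean signal of 133.3, against 501 on the others, and was brought to their scale by the normalization. Over the whole array the 3 TEN-160 samples were unlike the other 10. Their scores on the first principal component were 31 to 43.1, against -13.6 to -2.98 on the others, and the ratio of the 5' to the 3' signal of the BioD hybridisation control was 0.422 to 0.497 on TEN-160 arrays, against 0.132 to 0.210 on the others. The ratio of the 3' to the 5' signal of Gapdh, a sign of RNA quality that rises as RNA is degraded, was 1.505 to 1.726 in EtOH-160, 1.038 to 1.47 in EtOH-220, 1.026 to 1.242 in TEN-160 and 1.525 to 2.323 in TEN-220. It was higher in EtOH-160 than in TEN-160 on every array and overlapped between EtOH-160 and TEN-220, and its part in the changes below was not tested. The same ratio of beta-actin overlapped between EtOH-160 (1.77 to 2.31) and TEN-160 (1.91 to 2.96). On 15% of all tested probe sets, and on 4 of the 21 described here (19%), TEN-160 did not overlap with any other array. The spike-in control is added to the sample and is no liver RNA, so group and handling of the TEN-160 arrays cannot be told apart. The comparison of EtOH-160 with TEN-160 is therefore set beside EtOH-160 against TEN-220, whose means hold no TEN-160 array. This is done on the brightest probe set of each of the 10 genes, but only for some of the other genes. All 13 arrays were still normalized together and share the estimate of the spread. EtOH-160 and TEN-220 differ in both ethanol and energy supply, so their comparison cannot stand for the change with either alone. The comparisons share arrays and are not independent.

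**Figure D1:**
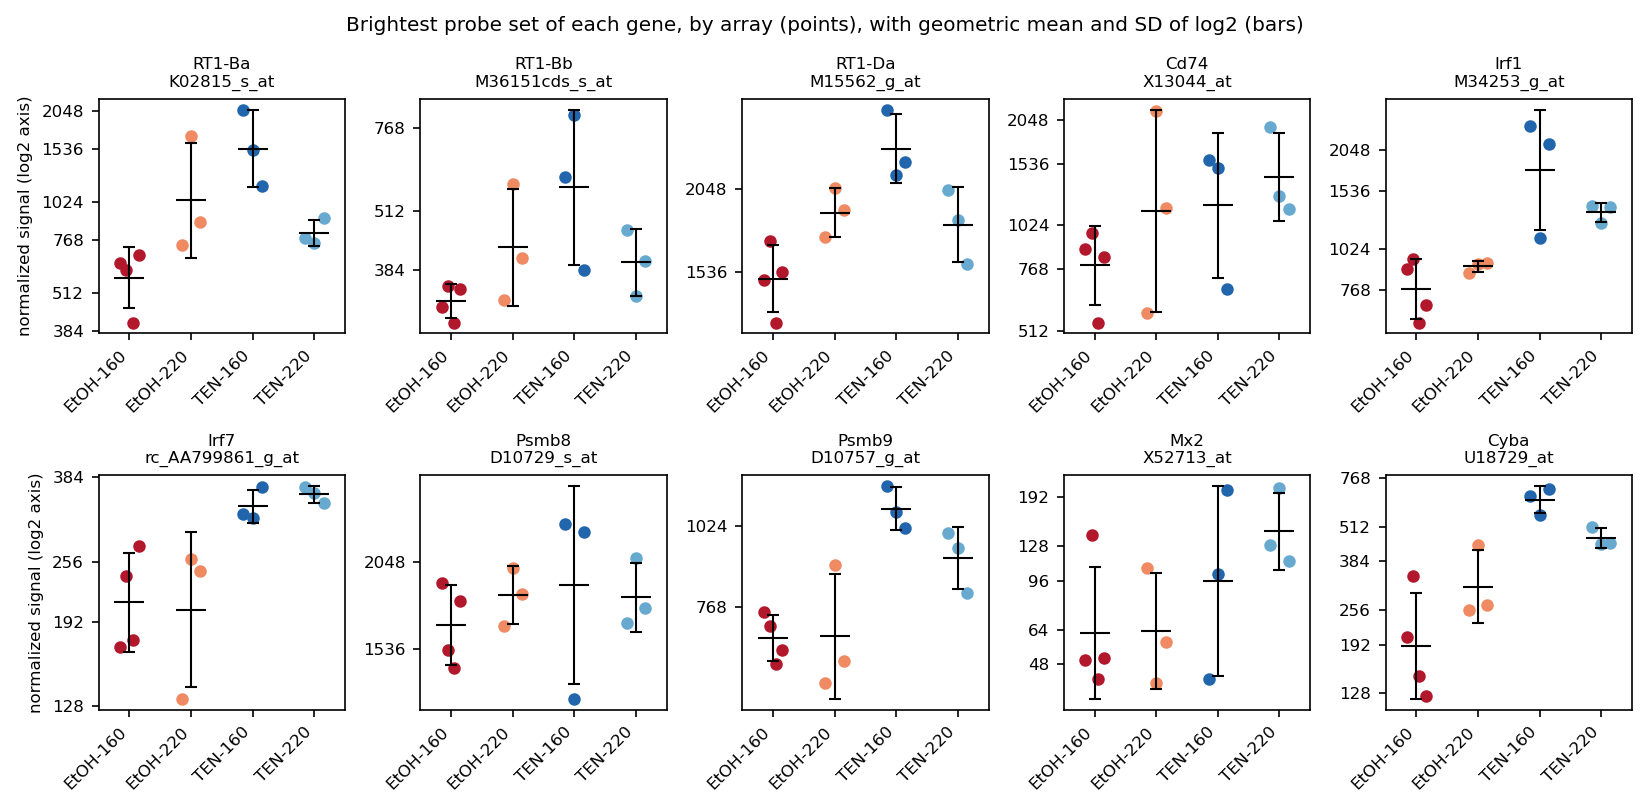
Normalized signal (log2 axis) of the brightest probe set of each of the 10 genes on every array. Points are arrays, horizontal bars geometric means and whiskers the SD of log2 signal (n = 4, 3, 3 and 3). For RT1-Ba, RT1-Bb, RT1-Da, Irf1, Irf7, Psmb9 and Cyba all EtOH-160 arrays lie below all TEN-160 arrays, while those of Cd74, Psmb8 and Mx2 overlap.

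RT1-Ba, the alpha chain of the rat equivalent of the HLA-DQ molecule, was measured by 3 probe sets that went different ways. The brightest, K02815_s_at, read 646, 610.2, 409.5 and 685 on the EtOH-160 arrays, 741, 1695 and 884 on the EtOH-220 arrays, 2076, 1522 and 1157 on the TEN-160 arrays, and 779, 754 and 908 on the TEN-220 arrays. EtOH-160 was the lowest group on it, and its arrays overlapped those of no other group. Its change was -1.42 ± 0.28 (SE) for EtOH-160 against TEN-160 and -0.49 ± 0.28 for EtOH-160 against TEN-220. TEN-160 was 0.93 ± 0.30 above TEN-220, and all its arrays were higher. The second probe set, X07551cds_s_at, read 529.9, 483, 308 and 513 in EtOH-160, 458, 925 and 539 in EtOH-220, 423, 409 and 291 in TEN-160, and 733, 461 and 459 in TEN-220. Here TEN-160 was the lowest group and every TEN-160 array was below every TEN-220 array, the opposite order to K02815_s_at. The third, M22366_at, changed by 0.15 ± 0.43 between EtOH-160 and TEN-160, with overlapping arrays. The suffix _s_at marks probes that can match more than 1 transcript, so the 3 readings need not be of the same RNA.

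RT1-Bb, the beta chain that pairs with RT1-Ba, had 5 probe sets. On the brightest, M36151cds_s_at, the signals were 320.5, 356, 297 and 350.2 in EtOH-160, 332, 584 and 407 in EtOH-220, 605, 817 and 384 in TEN-160, and 467, 337 and 401 in TEN-220. All EtOH-160 arrays were below all TEN-160 arrays, but they overlapped those of TEN-220. The changes were -0.80 ± 0.25 against TEN-160 and -0.27 ± 0.25 against TEN-220. On U65217_i_at the TEN-160 arrays read 484, 401 and 63.5, so that 1 group held both the lowest and the highest value of that probe set. X56596_at was highest in EtOH-220, at 273, 444 and 331, against 89.7, 49.6 and 219.9 in TEN-220, without overlap and with a change of 1.79 ± 0.57. The other 2 probe sets, M15358cds_at and M36151cds_i_at, were below background on every array and were not fitted.

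RT1-Da, the alpha chain of the rat equivalent of the HLA-DR molecule, had 2 probe sets, which went the same way. M15562_g_at read 1491, 1705, 1287 and 1534 in EtOH-160, 1730, 2052 and 1901 in EtOH-220, 2695, 2144 and 2250 in TEN-160, and 2042, 1837 and 1577 in TEN-220. EtOH-160 lay below both EtOH-220 and TEN-160 without overlap, and all TEN-160 arrays were above all others. Its change was -0.65 ± 0.15 for EtOH-160 against TEN-160 and -0.27 ± 0.15 against TEN-220, where arrays overlapped. Undernutrition went with a change of -0.34 ± 0.15 in the presence of ethanol (EtOH-160 minus EtOH-220) and of 0.38 ± 0.16 in its absence (TEN-160 minus TEN-220). The second probe set, M15562_at, changed by -0.59 ± 0.19 between EtOH-160 and TEN-160 and by -0.22 ± 0.19 between EtOH-160 and TEN-220.

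Cd74, the invariant chain, was measured by 4 probe sets that split the comparisons in another way. X13044_at read 878, 971, 539.7 and 829.5 in EtOH-160, 575, 2175 and 1145 in EtOH-220, 1577, 1497 and 673 in TEN-160, and 1959, 1241 and 1138 in TEN-220. EtOH-160 was below TEN-220 on every array, but TEN-160 replicate 3 lay among the EtOH-160 arrays. The change was -0.57 ± 0.41 against TEN-160 and -0.84 ± 0.41 against TEN-220. X14254cds_g_at showed the reverse overlap. Its EtOH-160 arrays, at 373.2 to 586.4, were all below its TEN-160 arrays, at 644.3 to 960.8, but overlapped those of TEN-220. Over the 4 probe sets the change lay between -0.68 and -0.38 against TEN-160 and between -0.84 and 0.07 against TEN-220, and none was called. TEN-160 against TEN-220 gave -0.27 and -0.20 on the X13044 probe sets but 0.23 and 0.44 on those of X14254, with SEs of 0.24 to 0.43. In these bulk samples fewer cells of a type and less RNA per cell cannot be told apart.

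Irf1, the interferon-induced factor that drives class I presentation, changed in opposite directions on its 2 probe sets where TEN-160 was compared with EtOH-160 or TEN-220. M34253_g_at read 888, 957, 613 and 691 in EtOH-160, 869, 924 and 928 in EtOH-220, 2416, 1107 and 2131 in TEN-160, and 1386, 1228 and 1376 in TEN-220. Both ethanol groups lay below both groups without ethanol, with no array overlapping. EtOH-160 differed from TEN-160 by -1.21 ± 0.24 and from TEN-220 by -0.78 ± 0.24, and EtOH-220 differed from TEN-220 by -0.55 ± 0.25. M34253_at, on the same transcript, read 399, 334, 206 and 241 in EtOH-160, 213, 392 and 368 in EtOH-220, 248, 119 and 242 in TEN-160, and 510.2, 409 and 689.6 in TEN-220. TEN-160 was lowest here and TEN-220 highest, and TEN-160 minus TEN-220 was -1.45 ± 0.34, against 0.43 ± 0.25 on M34253_g_at. EtOH-160 minus TEN-160 was 0.57 ± 0.32 on M34253_at, with overlapping arrays. Both probe sets put the ethanol groups below TEN-220, where M34253_at changed by -0.88 ± 0.32 in EtOH-160 and -0.74 ± 0.34 in EtOH-220. They differed in where they placed TEN-160.

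Irf7, the factor that amplifies type I interferon transcription, was lower in both ethanol groups on its brighter probe set, without a call. That probe set, rc_AA799861_g_at, read 169.8, 239.5, 176 and 276 in EtOH-160, 133, 259 and 245 in EtOH-220, 323, 316 and 366 in TEN-160, and 366, 357 and 339 in TEN-220. All 7 ethanol arrays were below all 6 arrays without ethanol. The change was -0.66 ± 0.24 for EtOH-160 against TEN-160, -0.75 ± 0.24 for EtOH-160 against TEN-220 and -0.80 ± 0.26 for EtOH-220 against TEN-220, and none of the 3 was called. The dimmer rc_AA799861_at gave -0.15 ± 0.21, -0.41 ± 0.21 and -0.30 ± 0.22 for the same comparisons. Between TEN-160 and TEN-220 the brighter probe set changed by -0.08 ± 0.26.

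Mx2, an interferon-induced GTPase, was near background. X52713_at read 49.8, 140.2, 42.5 and 50.6 in EtOH-160, 106, 41.1 and 57.7 in EtOH-220, 42.4, 101 and 204 in TEN-160, and 129, 207 and 113 in TEN-220. Only TEN-220 was above 100 on all its arrays, and EtOH-220 was below it without overlap. The change of EtOH-160 against TEN-220 was -1.21 ± 0.53, and its replicate 2 reached the TEN-220 range.

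Psmb8 and Psmb9, also known as LMP7 and LMP2, replace the constitutive subunits Psmb5 and Psmb6 in the immunoproteasome and favour peptides that fit class I molecules. Psmb9 on D10757_g_at read 755, 717, 627 and 659 in EtOH-160, 585, 891 and 634 in EtOH-220, 1181, 1077 and 1018 in TEN-160, and 999, 949 and 808 in TEN-220. TEN-160 was above the other 3 groups on every array, and EtOH-160 was below both groups without ethanol. The change was -0.66 ± 0.17 against TEN-160 and -0.41 ± 0.17 against TEN-220, and D10757_at gave -0.62 ± 0.15 and -0.21 ± 0.15. Psmb8 on D10729_s_at read 1909, 1534, 1444 and 1800 in EtOH-160, 1657, 2005 and 1840 in EtOH-220, 2315, 1304 and 2257 in TEN-160, and 1672, 2073 and 1756 in TEN-220. Its groups overlapped throughout, and its change was -0.19 ± 0.20 against TEN-160 and -0.14 ± 0.20 against TEN-220. Psmb5, the constitutive counterpart of Psmb8 and not one of the 10 genes, changed by 0.02 ± 0.14 (adjusted p = 0.935, limma) on its brightest probe set D45247_g_at between EtOH-160 and TEN-160, and by -0.26 ± 0.14 (adjusted p = 0.442) between EtOH-160 and TEN-220. Its other 2 probe sets were not called either, in any of the 6 comparisons.

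Cyba, the p22phox subunit that anchors the NADPH oxidase of phagocytes in the membrane, showed the lowest EtOH-160 levels relative to TEN-160. U18729_at read 205, 340.4, 148 and 125 in EtOH-160, 256, 442 and 267 in EtOH-220, 665, 565 and 704 in TEN-160, and 513, 444 and 447 in TEN-220. The 7 ethanol arrays were below the 6 arrays without ethanol, though EtOH-220 replicate 2 came close to TEN-220. The change was -1.76 ± 0.29 for EtOH-160 against TEN-160, -1.30 ± 0.29 against TEN-220 and -0.58 ± 0.31 for EtOH-220 against TEN-220. The call against TEN-160 held in all 22 alternative analyses of that comparison, and that against TEN-220 was lost in 13 of its 23, among them the fit without the TEN-160 arrays. Cyba was selected on these values and all 22 use TEN-160 arrays, so the calls are a description and no test. Rac1, the small GTPase that activates the oxidase and not one of the 10 genes, read 235, 301, 349 and 330.2 in EtOH-160, 477, 284 and 335 in EtOH-220, 816, 575 and 810 in TEN-160, and 401, 409 and 401 in TEN-220 on rc_AA799542_at. It was lower in EtOH-160 than in TEN-160, with a change of -1.27 ± 0.21 (adjusted p = 0.00107, limma), and higher in TEN-160 than in TEN-220 by 0.84 ± 0.22 (adjusted p = 0.018). The second call was lost when TEN-160 replicate 1 or 3 or TEN-220 replicate 1 or 2 was left out (adjusted p up to 0.0618), after median centring and on the values as deposited. EtOH-160 minus TEN-220 was -0.43 ± 0.21 (adjusted p = 0.383), with all EtOH-160 arrays below all TEN-220 arrays. Rac1 and Cyba were the only genes of the 7-gene NADPH oxidase list that a probe set names alone.

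**Figure D2:**
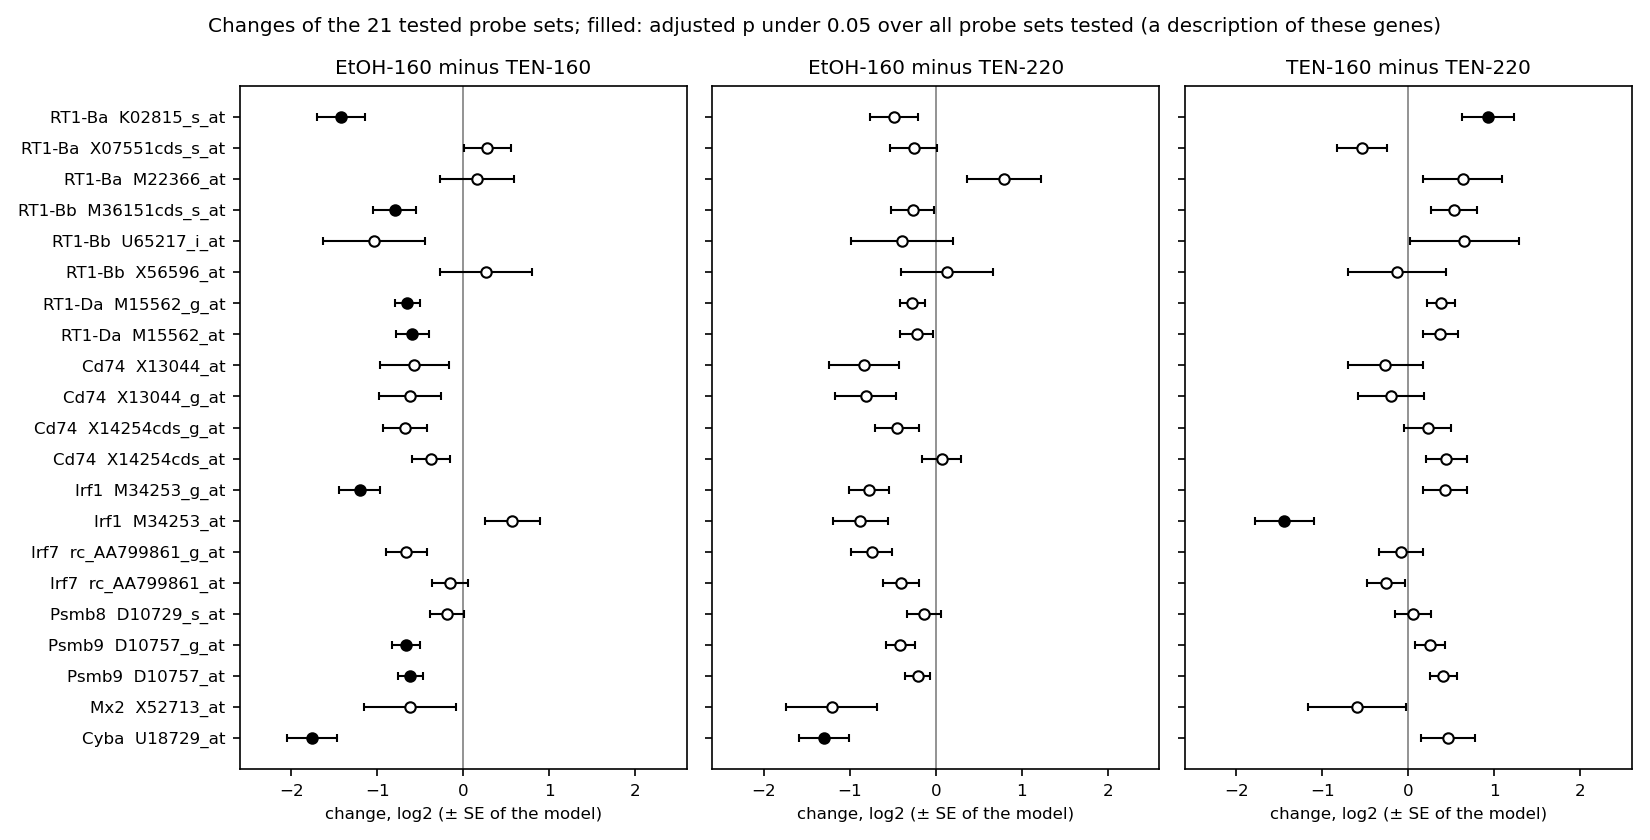
Change in log2 signal (x axis, ± SE of the fit) of the 21 fitted probe sets (y axis) for EtOH-160 minus TEN-160, EtOH-160 minus TEN-220 and TEN-160 minus TEN-220. Filled points have an adjusted p under 0.05 over all 5244 probe sets, as a description of genes selected on these values. In the left panel 8 points are filled and all 8 are below 0, and in the middle panel only Cyba is filled.

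Between EtOH-160 and TEN-160, 8 of the 21 probe sets, of 6 genes, were called and all 8 were lower, against a background of 22.3% of all tested probe sets called. On 17 of the 21 the change was negative, and the median was -0.62, against 0.02 over all tested. On 10 probe sets every EtOH-160 array was below every TEN-160 array, as was so on 15.2% of all tested. Since the genes were selected on this contrast, nothing is read from these counts. After centring each array on its median in place of quantile normalization, which moved the median change of all probe sets to 0.13, 3 of the 8 stayed called. These were K02815_s_at of RT1-Ba, M34253_g_at of Irf1 and the probe set of Cyba.

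Between EtOH-160 and TEN-220, 1 of the 21 was called, Cyba, against 2.23% of all tested, and 18 changes were negative with a median of -0.41, against -0.02 over all tested. Every EtOH-160 array was below every TEN-220 array on 8 of the 21, and on 8.96% of all tested. These were K02815_s_at of RT1-Ba, X13044_at of Cd74, both probe sets of Irf1, both of Irf7, D10757_g_at of Psmb9 and the probe set of Cyba. RT1-Bb and RT1-Da were not among them. TEN-160 against TEN-220 gave 2 calls, K02815_s_at of RT1-Ba higher and M34253_at of Irf1 lower, against 17.8% of all tested. The call of K02815_s_at was lost in 15 of 22 alternatives. The 13 positive changes among the 21 became 10 under median centring, so the direction of the whole set between TEN-160 and TEN-220 depended on the scaling.

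The comparisons with the smallest effects over the whole array were also those with no call among the 21. EtOH-160 against EtOH-220 had 0.286% of all tested probe sets called by limma, and 584 of 5244 at an unadjusted p under 0.05. None of the 21 was called, 18 changes were negative and the median was -0.23, against 0.0049 over all tested. EtOH-220 against TEN-220 had 0.0191% called, a single probe set, with 524 at an unadjusted p under 0.05. None of the 21 was called here either, and 11 changes were negative with a median of -0.02. The 8 probe sets of RT1-Ba, RT1-Bb and RT1-Da changed by 0.06 to 1.79 except U65217_i_at at -0.58, while Irf1, Irf7, Mx2 and Cyba were all negative, at -1.19 to -0.30. Psmb8, Psmb9 and Cd74 lay between -0.40 and 0.21. Without EtOH-220 replicate 2, 17 of the 21 changes were negative, with a median of -0.226. The interaction, which sets the ethanol change at 160 kcal against that at 220 kcal, called 7.13% of all tested and 1 of the 21. That was K02815_s_at of RT1-Ba, at -1.77 ± 0.41.

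By group mean, EtOH-160 was the lowest of the 4 groups on 14 of the 21 probe sets (66.7%) and on 22.2% of all tested. TEN-160 was the highest on 12 (57.1%) and on 34.1% of all tested. EtOH-160 was the highest on 1, M22366_at of RT1-Ba. EtOH-220 and TEN-220 overlapped on 11 of the 12 class II probe sets, counting Cd74, the exception being X56596_at of RT1-Bb. Over all tested probe sets, 17.8% did not overlap between these groups. Of the whole 21, 1 was higher in EtOH-220 without overlap, X56596_at, and 5 were lower. Those 5 were both probe sets of Irf1, rc_AA799861_g_at of Irf7 and the probe sets of Mx2 and Cyba.

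**Figure D3:**
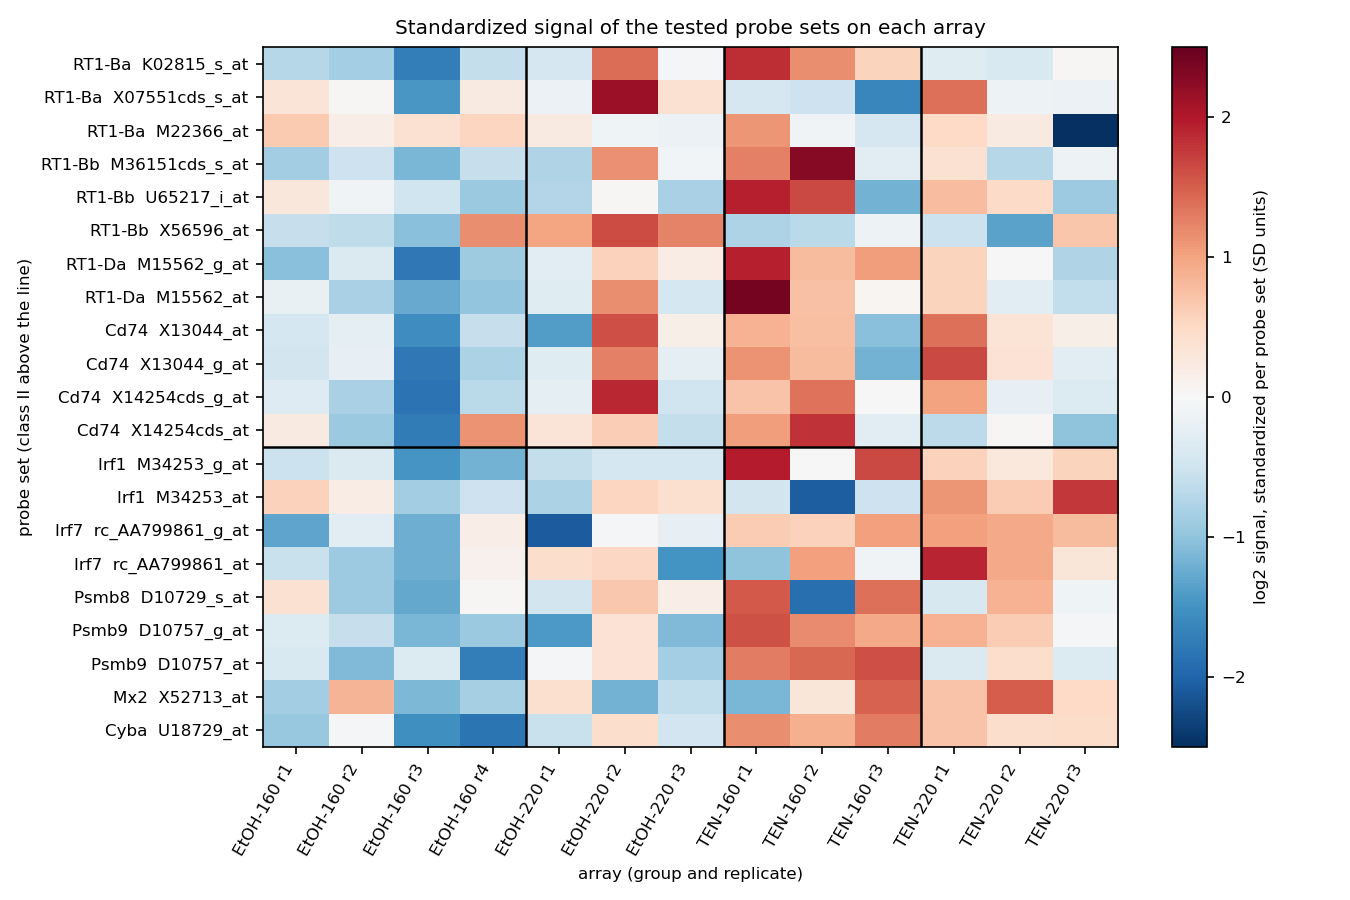
Log2 signal of the 21 fitted probe sets on the 13 arrays, standardized within each probe set (colour, SD units). Vertical lines separate the groups and the horizontal line divides the 12 class II probe sets, above, from the other 9. EtOH-160 replicate 3 and EtOH-220 replicate 2 stand out from their own groups over most class II rows, low and high.

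Replicates differed together within groups. Of the 12 fitted class II probe sets, counting Cd74, EtOH-160 replicate 3 was the lowest of its 4 arrays on 10 and EtOH-220 replicate 2 the highest of its 3 arrays on 11. TEN-160 replicate 3 was the lowest of its group on 10, and TEN-220 replicate 1 was the highest of its group on 9. The 12 are repeated readings of RT1-Ba, RT1-Bb, RT1-Da and Cd74. Such counts over all tested probe sets are not given here, so a shift of the whole array cannot be told apart. The mean standardized class II signal was -1.29 on EtOH-160 replicate 3, against -0.44 to -0.25 on the other EtOH-160 arrays, and 1.11 on EtOH-220 replicate 2, against -0.26 and -0.07 on the other EtOH-220 arrays. In TEN-160 it was 1.09, 0.84 and -0.37, and in TEN-220 it was 0.56, -0.13 and -0.53. On the 9 other probe sets, EtOH-160 replicate 3 was lowest of its group on 6 and EtOH-220 replicate 2 highest on 7, but TEN-160 replicate 3 was lowest on 1 only. The range within a group was 1.04 in EtOH-160, 1.37 in EtOH-220, 1.46 in TEN-160 and 1.09 in TEN-220, while the group means lay between -0.56 in EtOH-160 and 0.52 in TEN-160.

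The 8 probe sets whose profile over the 13 arrays was closest to the mean class II profile were those of Acadm, Acsl5, Psmb2, Klrg1, Ddost, Pdia4, Tpbpa and Cyp2c13, of 4288 candidates that name 1 gene. Likeness was the root mean square difference of standardized profiles, which was 0.52 for Acadm and 0.68 for Cyp2c13, against a median of 1.36 over the candidates. The class II probe sets themselves lay at 0.36 to 1.26. Acadm, a mitochondrial fatty acid oxidation enzyme, averaged 2625 in EtOH-160, 3571 in EtOH-220, 3392 in TEN-160 and 3062 in TEN-220 (geometric means). Psmb2, a constitutive proteasome subunit, averaged 607 in EtOH-160, 823 in EtOH-220, 1024 in TEN-160 and 689 in TEN-220. None of the 8 is a class II gene, and with 13 points that share arrays and scaling this is a description only.

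Other genes of the same pathways were taken from lists, and none of these genes is among the 10. Of 43 such genes tested, 8 (18.6%, against 22.3% of all tested probe sets) were called between EtOH-160 and TEN-160, of which 3 were higher and 5 lower, with a median change of -0.05. Of the 8 class II chains, chaperones and loading genes tested, 1 was lower, with a median of 0.01. That gene was RT1-DMb, a chain of the molecule that loads class II peptides, which read 338, 467, 320 and 433 in EtOH-160, against 526, 533 and 611 in TEN-160. It fell by 0.53 ± 0.17 on the log2 scale (adjusted p = 0.0417, limma), a call lost without TEN-220 replicate 1 or 2, any TEN-160 array, or EtOH-160 replicate 1 or 3 (adjusted p up to 0.124). Its geometric mean was 384.7 in EtOH-160, 555.3 in TEN-160 and 507.4 in TEN-220. RT1-Db1, the beta chain that pairs with RT1-Da, changed by 0.14 ± 0.51 (adjusted p = 0.873), and its arrays overlapped.

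**Figure D4:**
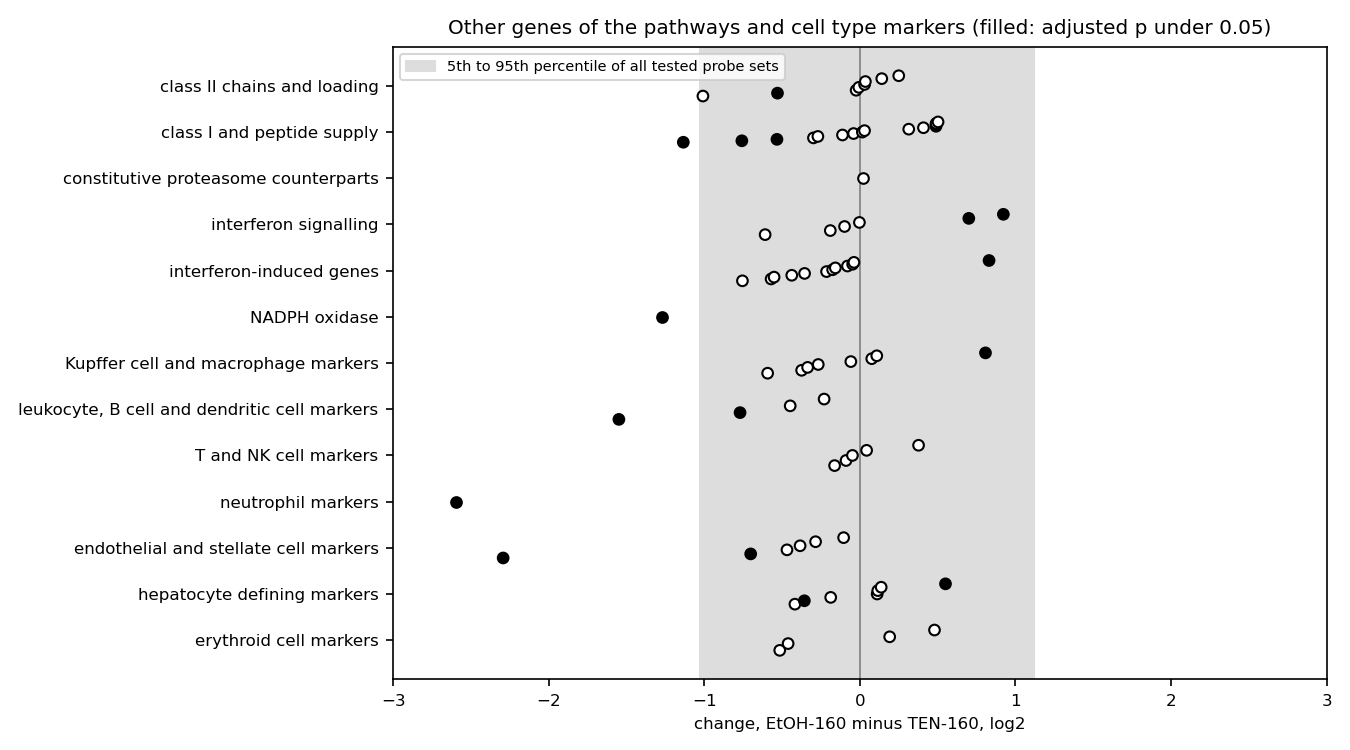
Change in log2 signal between EtOH-160 and TEN-160 (x axis) of the genes of each list (y axis), without the 10 genes, each gene by its brightest probe set. Filled points have an adjusted p under 0.05 (limma), and the grey band spans the 5th to the 95th percentile of all 5244 probe sets, from -1.03 to 1.12. Most list genes lie within the band, with Canx, Rac1, Cd53, S100a9 and Col1a1 below it.

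Of 15 genes of class I and its peptide supply, 3 were lower in EtOH-160 than in TEN-160 and none was higher, with a median of 0.02. Psme2, a subunit of the interferon-induced proteasome activator, read 560.1, 625, 525 and 542 in EtOH-160, against 921, 890 and 1048 in TEN-160, and fell by 0.76 ± 0.14 (adjusted p = 0.00216, limma). It was higher in TEN-160 than in TEN-220 by 0.51 ± 0.15 (adjusted p = 0.0323), a call lost without any 1 TEN-220 array or TEN-160 replicate 1 or 3 (adjusted p up to 0.0934). Its geometric mean was 561.8 in EtOH-160, 950.6 in TEN-160 and 668.4 in TEN-220. Canx, the chaperone calnexin, was lower in EtOH-160 than in TEN-160 with a change of -1.14 ± 0.19 (adjusted p = 0.00115) on its brightest probe set, and its other 4 probe sets gave -0.24, -1.48, 0.09 and -0.06. That probe set was higher in TEN-160 than in TEN-220 by 1.11 ± 0.20 (adjusted p = 0.00221). Its geometric mean was 1803 in EtOH-160, 3959 in TEN-160 and 1833 in TEN-220, so TEN-160 was the group that stood off. Pdia3, a thiol oxidoreductase of the class I loading complex, was lower in EtOH-160 than in TEN-160 and fell by 0.53 ± 0.16 (adjusted p = 0.0278), a call lost without any 1 TEN-160 array or EtOH-160 replicate 1, 3 or 4 (adjusted p up to 0.0818). B2m, the light chain of class I, changed by -0.30 ± 0.12 (adjusted p = 0.0849), and the 2 probe sets of Tap1, a peptide transporter chain beside the immunoproteasome genes, gave 0.49 ± 0.31 (adjusted p = 0.28) and -0.30 ± 0.30 (adjusted p = 0.515). None of B2m and Tap1 was called in any of the 6 comparisons. Cybb, Psmb6 and Psmb7 were not analysed here, as no probe set names 1 of them alone.

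The called genes of the interferon lists were higher in EtOH-160 than in TEN-160. Of 6 signalling genes, 2 were higher and none was lower, with a median of -0.05. Irf3, the constitutive factor that starts the interferon response, was higher by 0.70 ± 0.23 (adjusted p = 0.0407, limma), and Stat2, a transducer of type I interferon, by 0.92 ± 0.31 (adjusted p = 0.0444). Both were lower in TEN-160 than in TEN-220, with changes of -0.96 ± 0.24 (adjusted p = 0.0157) for Irf3 and -1.21 ± 0.33 (adjusted p = 0.0217) for Stat2. These 2 calls were lost without TEN-220 replicate 1 or TEN-160 replicate 1 (adjusted p up to 0.0628 for Irf3 and 0.068 for Stat2), and that of Stat2 also without TEN-220 replicate 3 or TEN-160 replicate 2. TEN-160 was thus the low group on both genes. Between EtOH-160 and TEN-220 none of the 6 was called, and all 6 changes were negative. Of 12 interferon-induced genes, Adar, an RNA-editing enzyme, was higher in EtOH-160 than in TEN-160 by 0.83 ± 0.26 (adjusted p = 0.0365), and no other was called. These 3 calls between EtOH-160 and TEN-160 were near the threshold and were lost when any 1 of several arrays was left out. That of Irf3 was lost without any 1 EtOH-160 or TEN-220 array or TEN-160 replicate 1 or 3 (adjusted p up to 0.168), and that of Stat2 without any 1 TEN-160 or TEN-220 array, EtOH-160 replicate 1, 3 or 4, or EtOH-220 replicate 3 (up to 0.129). That of Adar was lost without any 1 EtOH-160 array, TEN-160 replicate 2 or 3, or TEN-220 replicate 1 (up to 0.139). The other 11 changes of that list were negative, with a median over the 12 of -0.19. Gch1, which makes the cofactor of nitric oxide synthase, was higher in TEN-160 than in TEN-220 by 0.87 ± 0.18 (adjusted p = 0.0063). Its other 2 probe sets gave 0.39 and -0.38, and the call was lost after median centring and on the values as deposited (adjusted p up to 0.092).

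Against TEN-220, 1 of the 43 pathway genes was called in EtOH-160, and it was higher. Ctsl, the protease cathepsin L, read 6115, 5932, 6551 and 5789 in EtOH-160, against 3765, 3577 and 3747 in TEN-220, and was higher by 0.72 ± 0.12 (adjusted p = 0.00824, limma). It was higher in TEN-160 than in TEN-220 too, by 0.74 ± 0.13 (adjusted p = 0.0021), and EtOH-220 read 3885, 3840 and 4605. Both undernourished groups were thus above both groups at 220 kcal on every array, an order that none of the class II chains showed. None of the 43 was called between EtOH-160 and EtOH-220 or between EtOH-220 and TEN-220, where 5 and 6 had an unadjusted p under 0.05.

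Markers of the cells that carry class II, and of other liver cells, were measured beside these genes. Of 35 marker genes tested over all these lists, 8 were called between EtOH-160 and TEN-160, 2 higher and 6 lower. That is 22.9%, near the 22.3% of all tested probe sets. Between TEN-160 and TEN-220, 3 were called (8.57%, against 17.8% of all tested). Between EtOH-160 and TEN-220, 1 was called (2.86%, against 2.23% of all tested). Albumin, the main product of hepatocytes, read 33600 to 38730 on all arrays, and the summed signal of 7 hepatocyte markers was 174900 to 193700. Of these 7, Apoc3, an apolipoprotein, was higher in EtOH-160 than in TEN-160 by 0.55 ± 0.11 (adjusted p = 0.00358, limma) and Ttr, transthyretin, fell by 0.36 ± 0.10 (adjusted p = 0.0258). The call of Ttr was lost without EtOH-160 replicate 1 or 4 or TEN-160 replicate 1 or 2 (adjusted p up to 0.0712), and its other probe set changed by 0.32. The 2 other probe sets of Apoc3 changed by 0.02 and 0.16. Between TEN-160 and TEN-220, Apoc3 fell by 0.54 ± 0.12 (adjusted p = 0.00717), with -0.06 on both others, and the values as deposited turned its sign (0.25). On the called probe set of Apoc3 the geometric mean was 38970 in EtOH-160, 26620 in TEN-160 and 38800 in TEN-220. The sum over 6 of 15 leukocyte, B cell and dendritic cell markers was 532.4 to 719.6 in EtOH-160, 617.5 to 774.8 in EtOH-220, 1067 to 1628 in TEN-160 and 726.5 to 882.4 in TEN-220. TEN-160 was above all other arrays on this sum, and EtOH-160 was below TEN-220 on every array. Within it, Cd53, a tetraspanin of leukocytes, read 88.6, 163, 139.5 and 101 in EtOH-160, against 349, 219.9 and 557 in TEN-160, and fell by 1.55 ± 0.31 (adjusted p = 0.00352, limma). In TEN-220 Cd53 read 188.8, 206.3 and 167.6. Cd48, a surface protein of lymphocytes and other leukocytes, fell by 0.77 ± 0.24 (adjusted p = 0.0324), a call lost without EtOH-160 replicate 1, 2 or 4 or TEN-160 replicate 1 or 3 (adjusted p up to 0.149). Its TEN-220 arrays, at 209.9, 171.9 and 176.5, overlapped those of EtOH-160, at 154.4 to 201.2. Of the 4 markers tested in this list, both others had negative changes and were not called. The part of these markers in the class II and Cyba values was not tested.

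**Figure D5:**
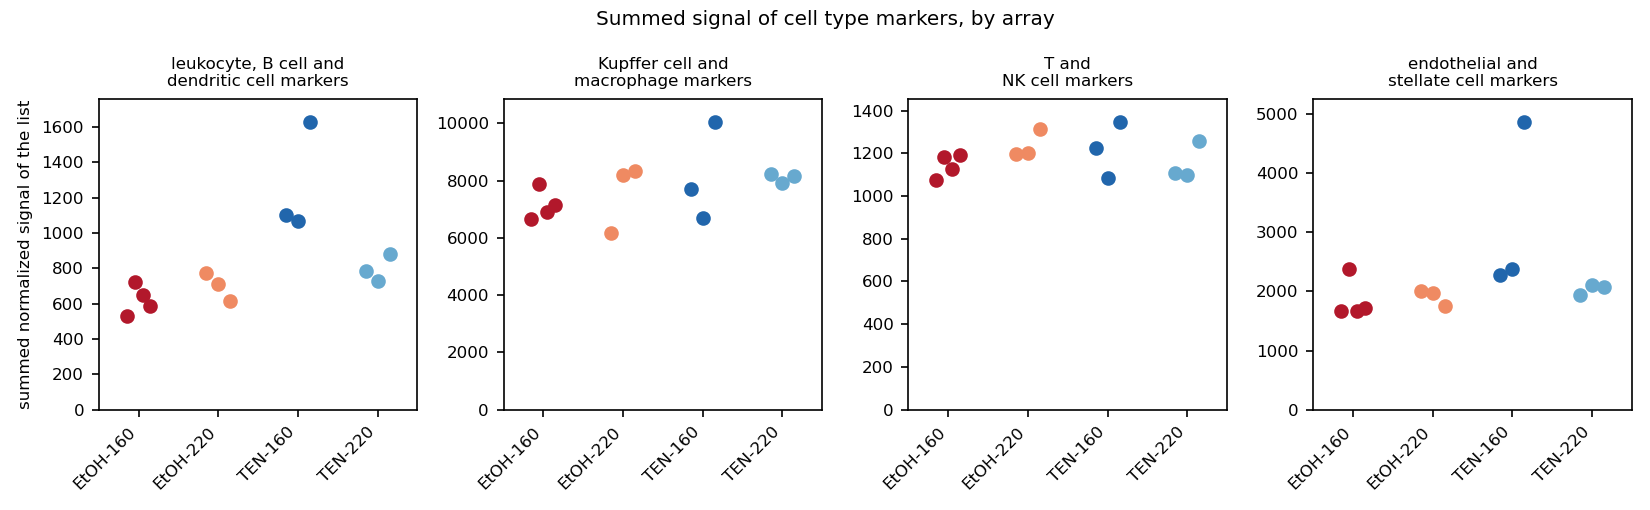
Summed normalized signal (y axis, from 0) of 4 marker lists on each array (points), by group. The leukocyte, B cell and dendritic cell sum is 1067 to 1628 in TEN-160, above every other array, while the Kupffer cell and macrophage sum overlaps between EtOH-160 and TEN-160 and is 6661 to 7874 in EtOH-160, below the 7904 to 8214 of TEN-220.

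The sum over 10 of 22 Kupffer cell and macrophage markers was 6661 to 7874 in EtOH-160, 6166 to 8335 in EtOH-220, 6681 to 10050 in TEN-160 and 7904 to 8214 in TEN-220, with Itgam at or below background on all arrays. It overlapped between EtOH-160 and TEN-160, and EtOH-160 lay below TEN-220 on every array. Of its 8 genes tested between EtOH-160 and TEN-160, 1 was called. Cd14, the endotoxin coreceptor, was higher in EtOH-160 by 0.81 ± 0.17 (adjusted p = 0.00488, limma) and by 0.89 ± 0.17 against TEN-220 (adjusted p = 0.0166). The second call was lost without EtOH-160 replicate 3 or 4 or TEN-220 replicate 2 or 3 (adjusted p up to 0.0855). The other probe set of Cd14 gave 1.57 and 1.51 for these comparisons. EtOH-220 was high too, at 862.2, 793.8 and 1094, against 852.2 to 1102 in EtOH-160 and 461.5 to 620.6 on the arrays without ethanol. The other 7 genes were not called between EtOH-160 and TEN-160, with C1qb, C1qc and Clec4f, made by Kupffer cells, among them. The sum over 15 of 17 T and NK cell markers was 1073 to 1193 in EtOH-160 and 1085 to 1347 in TEN-160, and Cd3d, Cd2, Prf1 and Thy1 were at or below background on all arrays. None of its 5 tested genes was called.

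The sum over 8 of 12 endothelial and stellate cell markers was 1665 to 2372 in EtOH-160 and 2271 to 4865 in TEN-160, where TEN-160 replicate 3 gave the highest value. Of 6 genes tested in this list, 2 were lower in EtOH-160 than in TEN-160 and none was higher. Lyve1, of sinusoidal endothelium, fell by 0.70 ± 0.22 (adjusted p = 0.0332, limma) and Col1a1, a collagen chain, fell by 2.29 ± 0.68 (adjusted p = 0.0288). The other 3 probe sets of Col1a1 gave -0.14, -0.49 and -0.30. Both calls were lost without EtOH-160 replicate 1, 3 or 4 or TEN-160 replicate 3, and that of Lyve1 also without TEN-160 replicate 1 (adjusted p up to 0.15 for Lyve1 and 0.129 for Col1a1). On Col1a1, TEN-160 replicate 3 read 2144, against 350.8 and 248.2 on the other TEN-160 arrays. The TEN-220 arrays read 264.8, 259.1 and 299.4 on it. Acta2, in the same list but too dim to be tested, went the other way. It read 44.32, 47.98, 74.15 and 36.23 in EtOH-160, against 20.46, 11.28 and 15.88 in TEN-160, where all were below background. Between TEN-160 and TEN-220, Lyve1 was higher by 0.87 ± 0.23 (adjusted p = 0.0202), a call lost without TEN-160 replicate 3 or TEN-220 replicate 3 (adjusted p up to 0.0805). In the same comparison Kdr, a receptor of endothelium, was higher by 1.55 ± 0.37 (adjusted p = 0.0114). The geometric mean of Lyve1 was 252.8 in EtOH-160, 411.3 in TEN-160 and 225.1 in TEN-220, so EtOH-160 was not below TEN-220. Of 4 neutrophil markers on the array, 1 was bright enough to be tested. It was S100a9, lower in EtOH-160 than in TEN-160 (adjusted p = 0.0498), where 2 of 4 EtOH-160 arrays were above background, and the call was lost without EtOH-160 replicate 1, 3 or 4, EtOH-220 replicate 1 or 2, TEN-160 replicate 1 or any 1 TEN-220 array (adjusted p up to 0.119). Cxcr2, another neutrophil marker, went the other way below background. It read 28.34, 39.85, 38.59 and 23.17 in EtOH-160, against 10.39, 9.338 and 11.46 in TEN-160. S100a8 and Defa5 overlapped between these groups. None of 4 erythroid markers was called between EtOH-160 and TEN-160.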

How the data were processed

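The authors deposited linear intensity values, 1 per probe set and array, made with MAS5 per the submitters' processing notes (no version given). The 13 arrays were quantile-normalized over the 8740 probe sets other than the 59 controls, set to a floor of 9.338 (the 10th percentile) and, as the deposited values are linear, taken to log2. The dimmest 40% were left out, which kept 5244. Background is the 95th percentile of 19 control probe sets that were assumed here not to be spiked in. Probe sets were named by the platform annotation: 7006 name 1 gene, 308 several and 1426 none. Group means were fitted with limma 3.58.1 in R 4.3.3 (4 groups, trend, Benjamini-Hochberg, threshold 0.05), tested on simulated data. Precision is limited by the 3 or 4 arrays per group. All 23 probe sets of the 10 genes are reported; of other genes, a rule named up to 4 called genes per list and comparison, the relatives Psmb5, B2m and Tap1, and the 8 most alike probe sets. Members and lists (13) were chosen with earlier results of these data known, and the motifs after the promoters had been read. Correlations between the deviations of same-numbered arrays were -0.112 to 0.0853 (18 pairs, median 0.0339). Over 45 pairs of other numbers they were -0.159 to 0.2 (median -0.00354). With so few arrays this cannot exclude a pairing by number, and the main fit used none. Alternatives were other scalings, floor, filter, trend, array weights, replicate block, groups alone, each array left out and, chosen after seeing the data, a fit without TEN-160. Figures were drawn with matplotlib 3.10.9 and sequences are RefSeq's, in GRCr8.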

Additional observations from a re-analysis of the deposited data

Results flagged for a closer look

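On X07551cds_s_at of RT1-Ba, EtOH-160 replicate 3 read 307.9, against 483.2 to 529.9 on the other 3 arrays of the group. On X52713_at of Mx2, EtOH-160 replicate 2 read 140.2, against 42.55 to 50.59 on the other 3. Both lay farther from the rest of their group than Dixon's 95% criterion for 4 samples allows, among 21 probe sets examined, and chance gives about 1 such value in 20 groups.

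The ethanol change at 160 kcal differed from that at 220 kcal by -1.77 on K02815_s_at of RT1-Ba, a gene selected on such values, where leaving out TEN-220 replicate 1, TEN-220 replicate 2 or TEN-160 replicate 1 ended the call. On M15562_g_at of RT1-Da, all EtOH-160 arrays were below all EtOH-220 arrays and all TEN-160 arrays were above all TEN-220 arrays, a difference of -0.7151 that the fit of the interaction did not call. The same difference was -1.275 for Canx (adjusted p = 0.016, limma), 1.289 for Irf3 (adjusted p = 0.0333), -1.089 for Rac1 (adjusted p = 0.0452) and 0.645 for Apoc3, a hepatocyte marker (adjusted p = 0.0306). All of these use the TEN-160 arrays, which stood apart over the whole array. The call of Irf3 was lost without any 1 of 10 arrays, of Rac1 without any 1 of 11 and of Apoc3 without any 1 of 6 (adjusted p up to 0.08, 0.0982 and 0.0856), and that of Canx was lost in none of these but after median centring and on the values as deposited (adjusted p up to 0.154). The cause was not tested.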

How the results depend on the processing

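Of 3515 changes of the described and named genes under an alternative, 3245 were labelled kept, 196 weaker, 72 moved and 2 reversed. Kept means the same direction and side of the threshold, or a value within 1 SD even where the call changed. The call of Cyba between EtOH-160 and TEN-220, lost in the fit without the TEN-160 arrays, was thus labelled kept. The counts therefore do not give the number of lost calls or of changes of sign. Those labelled reversed are Apoc3 on the values as deposited, at 0.25 for TEN-160 minus TEN-220 and -0.22 in the interaction. Changes not called could turn sign without that label, as Psmb8 did between EtOH-160 and TEN-160 (-0.46 to 0.13 over the alternatives). Between EtOH-160 and TEN-160, 8 of the 21 were called, 3 after median centring and 1 as deposited, and of the 43 other genes 8 were called, 0 as deposited, 3 with the replicate block and 5 with the groups alone. Between TEN-160 and TEN-220, 2 of the 21 were called, 0 as deposited and 1 each with TEN-220 replicate 1 rescaled only, median centring, no filter, no variance trend or the replicate block, and of the other genes 7 were called, 11 after median centring and 2 as deposited. Between EtOH-160 and EtOH-220, median centring called 1 other gene in place of 0, and between EtOH-220 and TEN-220 the deposited values called 1 of the 21 in place of 0. Between EtOH-160 and TEN-220, 1 of the 21 was called, 3 with array weights and 0 as deposited, with no filter, no trend, the replicate block or the groups alone, and of the other genes 1 was called, 0 as deposited and 2 with array weights. In the interaction, 1 of the 21 was called, 0 as deposited or with no filter and 3 with array weights, and of the other genes 3 were called, 0 as deposited and 1 with no filter or with the replicate block. The replicate block moved no other count of these genes by over 1.5 times. The cause was not tested, except that values as deposited leave TEN-220 replicate 1 unscaled.

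Leaving out each array in turn gave 6 to 9 calls of the 21 between EtOH-160 and TEN-160, 1 to 4 between TEN-160 and TEN-220, 0 to 0 between EtOH-160 and EtOH-220 and between EtOH-220 and TEN-220, 0 to 2 between EtOH-160 and TEN-220 and 0 to 2 in the interaction. For the other genes the ranges were 4 to 9, 3 to 8, 0 to 1, 0 to 0, 1 to 2 and 1 to 3 in the same order. Without 1 of TEN-160 replicates 1 and 2 or EtOH-160 replicates 1, 3 and 4 the call of M36151cds_s_at of RT1-Bb between EtOH-160 and TEN-160 was lost (change -1.09 to -0.55 over all arrays left out), and that of M15562_at of RT1-Da without TEN-220 replicate 2, TEN-160 replicates 1 and 2 or EtOH-160 replicates 2, 3 and 4 (-0.75 to -0.38). The call of Cyba between EtOH-160 and TEN-220 was lost without any TEN-220 array, TEN-160 replicate 1 or EtOH-160 replicates 1, 3 and 4 (-1.58 to -1.10). In the fit without the TEN-160 arrays it was lost too, at an unmoved change of -1.30, and M34253_g_at of Irf1 was called in its place (-0.78).

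Over all probe sets, 622 were called higher and 546 lower between EtOH-160 and TEN-160, 530 and 634 with rescaling only, 849 and 350 after median centring and 107 in all as deposited. Between TEN-160 and TEN-220 the split was 411 and 521, 263 and 833 after median centring and 328 and 18 as deposited. In the interaction it was 212 and 162, 449 and 109 after median centring, 194 and 210 with rescaling only and 4 and 61 as deposited. Median centring moved the median change of all probe sets to 0.13, -0.16 and 0.22 in these 3 comparisons. Between EtOH-160 and EtOH-220 15 probe sets were called in all, 0 with no filter, 2 with the replicate block and 7 with the groups alone. Between EtOH-220 and TEN-220 it was 1, and 58 as deposited, 16 with array weights and 2 with median centring or the block. Between EtOH-160 and TEN-220 it was 117, and 60 with no filter, 68 with no trend, 58 with the block and 289 with array weights. Without 1 array these totals were 543 to 1059 between TEN-160 and TEN-220 (lowest without TEN-220 replicate 1 or 2), 0 to 52 between EtOH-160 and EtOH-220 (0 without EtOH-160 replicate 3 or 4, 52 without EtOH-160 replicate 1), 0 to 13 between EtOH-220 and TEN-220 (13 without EtOH-220 replicate 2), 38 to 150 between EtOH-160 and TEN-220 (38 to 44 without any 1 TEN-220 array) and 132 to 344 in the interaction (lowest without TEN-220 replicate 1). Signals near background, as for Mx2, limit what the arrays can show.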
